A study of Homo sapiens with 48 samples.

Results

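The effect of an siRNA against UPF1 was measured in the I757R line, Flp-In 293 T-REx cells that stably express UPF1 with a CLIP tag and the change labelled I757R. The comparison takes 6 of the 48 libraries of the series, chosen by their labels: I757R with the UPF1 siRNA (siUPF1, replicates 1 to 3) against I757R with a non-targeting siRNA (siNT, replicates 1 to 3). Flp-In 293 T-REx is a human embryonic kidney line with one genomic site for inserting a transgene. Cells were transfected at plating with 40 nM siRNA and collected 72 h later, and the RNA left after depletion of ribosomal RNA was sequenced. The 3 other lines compared with it had the same 2 siRNAs and 3 replicates each: the line labelled IR-ER, whose label is not spelled out, the line with CLIP-tagged wild-type UPF1 (WT), and the line with the CLIP tag alone (CLIP). All 4 lines keep the endogenous UPF1 gene. Not given in the sources used here were the siRNA sequences, the promoter and induction of the transgene, and whether the lines are single clones or pools.

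UPF1 is an RNA helicase with ATPase activity at the centre of nonsense-mediated decay (NMD). In this pathway UPF1 is recruited when translation stops early, the kinase SMG1 phosphorylates it, and factors such as SMG5 and SMG6 lead the mRNA into degradation. NMD removes mRNAs with premature stop codons and also lowers a number of normal transcripts, among them mRNAs of several NMD factors, of stress response genes such as ATF4, and spliced RNAs of snoRNA host genes.

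The 6 I757R libraries held 6516261 to 12614024 expected counts, within the 6016999 to 14551820 of the 48 libraries, and 16697 genes were tested. Levels are CPM, counts scaled to the library size, and changes are log2 fold changes of siUPF1 over siNT with their standard error (SE). Called means an adjusted p under 0.05 in edgeR's quasi-likelihood F test, which also gave every adjusted p of single genes below. Of the 14 genes listed for 293 cells, 2 stayed under 1 CPM in I757R, and their summed level was 605 to 906 CPM with siUPF1 and 710 to 894 CPM with siNT. The neurofilament gene NEFL averaged 343 CPM with siUPF1 and 253 CPM with siNT, and the cadherin gene CDH2 averaged 142 CPM with siUPF1 and 176 CPM with siNT. The filament gene INA averaged 37.7 CPM with siUPF1 and 53.9 CPM with siNT. Of the 12 of these genes tested, 0 were called higher, so NEFL was not called, and 2 were called lower, CDH2 and INA. Of all genes tested, 8.13% were called higher and 7.79% lower. The CDH2 call was lost with only the 6 I757R libraries fitted (adjusted p = 0.0514). The INA call was lost without siNT replicate 2 or siUPF1 replicate 3 (adjusted p = 0.0625 and 0.0994). PAX8, a kidney transcription factor, was at 0 in both groups. Fibroblast markers summed to 9.0 to 13.2 CPM with siUPF1 and 7.22 to 9.91 CPM with siNT, with COL1A2 and DCN at 0. Of these markers the collagen gene COL3A1 averaged 5.62 CPM with siUPF1 and 2.52 CPM with siNT and was called higher (1.16, SE 0.37, adjusted p = 0.0255), a call lost when any library but siUPF1 replicate 2 was left out (adjusted p from 0.0516 to 0.107). The receptor gene PDGFRA averaged 3.36 CPM with siUPF1 and 3.09 CPM with siNT, and the collagen gene COL1A1 averaged 1.87 CPM with siUPF1 and 2.62 CPM with siNT. Blood cell markers summed to 8.25 to 11.8 CPM with siUPF1 and 11.5 to 13.7 CPM with siNT, with CD3E and HBB at 0. CD68 made up most of that sum, at a mean of 8.54 CPM with siUPF1 and 9.60 CPM with siNT, and HBA1 averaged 0.525 CPM with siUPF1 and 2.46 CPM with siNT and was called lower (−2.15, SE 0.55, adjusted p = 0.00513), a call lost without siNT replicate 3 (adjusted p = 0.0526) and with only the 6 I757R libraries fitted (adjusted p = 0.0739). CD14 averaged 0.84 CPM with siUPF1 and 0.32 CPM with siNT. Whether RNA of other cells has a part in these values was not tested.

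UPF1 RNA (chromosome 19, 18831938 to 18868236, plus strand, hg38) stood at 4082, 3791 and 3856 CPM with siUPF1, against 3969, 3669 and 4396 CPM with siNT. The libraries overlapped, and the log2 change was −0.04 (SE 0.11, adjusted p = 0.879). A two-sided exact permutation test over the 6 libraries gave p = 0.8, where 0.1 is the smallest value that 3 against 3 allows. In the CLIP line UPF1 averaged 20.4 ± 0.916 CPM with siUPF1 and 106 ± 7.45 CPM with siNT (SD, n = 3 each). The I757R line thus held 191.7-fold more UPF1 RNA than CLIP with siUPF1 and 37.95-fold more with siNT. The log2 effects of the 2 lines differed by 2.33, I757R minus CLIP (SE 0.17, adjusted p = 1.58e-12). Reads of the transgene and of the endogenous gene were counted together, so the remaining level of endogenous UPF1 in I757R cells cannot be read from these data.

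Although total UPF1 RNA did not pass its test, 2658 genes (15.9% of those tested) were called in I757R cells with siUPF1. Of these, 1358 rose (8.13%) and 1300 fell (7.79%), and the median size of a called change was 0.527 on the log2 scale. Changes of at least 1.5-fold were made by 509 risers (3.05%) and 612 fallers (3.67%). All 3 siUPF1 libraries lay above all 3 siNT libraries for 2451 genes (14.7%) and below them for 2317 (13.9%). The replicate numbers pair the libraries, which the main fit does not use. The block named here and below is the replicate number, with effects shared by all lines of the fit. With it the count was 4756, with 2408 rises and 2348 falls, among them all 2658 genes called without it (14.4% of all genes rose and 14.1% fell with the block). With only the 6 I757R libraries fitted, 1344 genes were called, and 4932 with the replicate number as a block within this line. Among protein-coding genes 1275 rose (9.58%) and 1219 fell (9.16%), among long noncoding genes 46 rose (2.54%) and 56 fell (3.09%), and among pseudogenes 33 rose (2.77%) and 20 fell (1.68%). In CLIP cells, by comparison, 140 of the same 1191 pseudogenes rose (11.8%), where 18.1% of all genes did.

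The largest rise among genes with a mean of at least 5 CPM was that of PAQR6 (chromosome 1, 156243321 to 156248117), a membrane receptor of the progestin and adipoQ family. PAQR6 had 8.17, 12.3 and 10.8 CPM with siUPF1 and 1.84, 1.44 and 3.7 CPM with siNT, a log2 change of 2.17 (SE 0.31, adjusted p = 2.36e-06). The 3 siUPF1 libraries stood more than 4 CPM above the highest siNT library. WNK4, a kinase that controls ion transport in the kidney, had 8.95, 12.5 and 9.54 CPM with siUPF1 and 2.16, 3.37 and 3.82 CPM with siNT (1.74, SE 0.27, adjusted p = 1.04e-05). ENPP5, of the nucleotide pyrophosphatase family, had 19.2, 12.3 and 12.1 CPM with siUPF1 and 4.87, 3.85 and 4.54 CPM with siNT (1.72, SE 0.24, adjusted p = 1.27e-06). LMLN, a metallopeptidase related to leishmanolysin, had 27.6, 23.1 and 25.2 CPM with siUPF1 and 8.63, 7.10 and 7.88 CPM with siNT (1.68, SE 0.16, adjusted p = 3.86e-10). In these 3 genes too, every siUPF1 library was more than 2-fold above the highest siNT library.

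SRPRA (chromosome 11, 126262919 to 126269144) encodes the subunit of the signal recognition particle receptor that docks ribosomes to the endoplasmic reticulum (ER). It had 164, 130 and 119 CPM with siUPF1 and 48.2, 41.0 and 42.1 CPM with siNT, a rise of 1.65 (SE 0.16, adjusted p = 3.86e-10). CELF2, an RNA-binding protein that regulates splicing, had 76.0, 77.4 and 73.9 CPM with siUPF1 and 24.5, 23.7 and 30.7 CPM with siNT (1.53, SE 0.10, adjusted p = 8.84e-15). Its siUPF1 libraries lay within 4 CPM of each other, and its SE was the smallest among the 12 largest rises. The nuclear receptor NR6A1 (1.54), the apical junction protein AJM1 (1.56), the adaptor DOK3 (1.55), the purinergic receptor P2RY11 (1.51), the protein-coding locus AC005726.1 (1.53) and the noncoding transcript Z92544.2 (1.61) completed the 12. Among the 12, DOK3 lost its call when siUPF1 replicate 2 was left out (adjusted p = 0.0528). AC005726.1 lost its call with only the 6 I757R libraries fitted and the replicate number as a block (adjusted p = 0.166).

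The largest falls reached further from zero than the largest rises. PRDX3 (chromosome 10, 119167703 to 119178833), the peroxiredoxin that removes hydrogen peroxide in mitochondria, had 9.89, 16.7 and 14.1 CPM with siUPF1 and 99.6, 83.7 and 90.7 CPM with siNT. Its log2 change was −2.78 (SE 0.16, adjusted p = 7.48e-16), and the groups lay far apart. MSX1 (chromosome 4, 4859666 to 4863936), a homeobox transcription factor downstream of bone morphogenetic proteins, had 4.47, 4.20 and 5.09 CPM with siUPF1 and 30.1, 26.6 and 29.6 CPM with siNT (−2.65, SE 0.17, adjusted p = 6.83e-15). FADS2, the delta-6 fatty acid desaturase, had 8.86, 5.40 and 10.0 CPM with siUPF1 and 55.5, 30.8 and 59.4 CPM with siNT (−2.56, SE 0.27, adjusted p = 1.06e-08). FADS2 was lowest in replicate 2 with either siRNA, and the groups were far apart in each replicate number.

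DSP (chromosome 6, 7541575 to 7586717), desmoplakin, which anchors intermediate filaments to desmosomes, was the most abundant of the 12 largest falls. It had 198, 176 and 208 CPM with siUPF1 and 874, 771 and 841 CPM with siNT, a change of −2.09 (SE 0.09), and its adjusted p of 3.27e-21 was the smallest of the comparison. CENPW, a centromere protein, had 5.76, 7.05 and 6.11 CPM with siUPF1 and 26.1, 27.1 and 26.3 CPM with siNT (−2.08, SE 0.20, adjusted p = 6.05e-10). The groups did not overlap for any of the 24 genes, as the plot of levels by library shows. These genes were chosen as the largest called changes in the same libraries. Of all genes, 14.7% lay above and 13.9% below without overlap. RIDA, a deaminase (−2.39), the microtubule-binding stathmin STMN3 (−2.27), the transcription factor ETV4 (−2.20), the actin regulator CARMIL2 (−2.06), SCART1 (−1.97) and GAMT, which makes creatine (−1.96), also fell. NOTCH3 had 1.72, 1.5 and 3.43 CPM with siUPF1 and 8.07, 4.45 and 16.8 CPM with siNT (−2.14, SE 0.73, adjusted p = 0.0418). Its call was lost when any library but siNT replicate 2 was left out, with adjusted p from 0.0536 to 0.222.

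**Figure D1:**
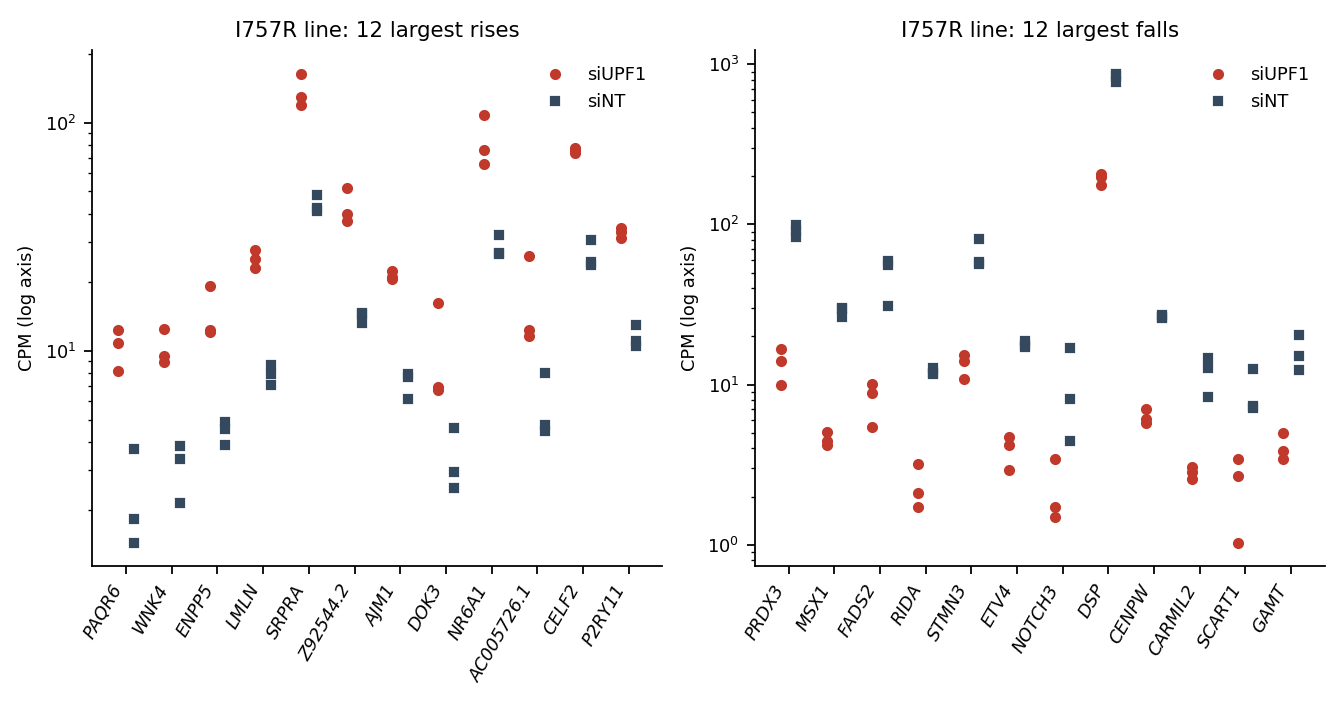
Levels in CPM (log axis) of the 12 genes with the largest rises (left panel) and the 12 with the largest falls (right panel) in the I757R line, one point per library, circles for siUPF1 and squares for siNT. The groups do not overlap for any gene shown. The genes were chosen as the largest called changes in these libraries, and of all genes 14.7% lay above and 13.9% below without overlap. PRDX3 spans 9.89 to 16.7 CPM with siUPF1 and 83.7 to 99.6 CPM with siNT.

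Short sequences in the 3' untranslated regions (UTRs) of the changed genes were then compared between called genes and genes not called. UTRs came from GENCODE 29 on hg38, from the coding transcript with the longest coding sequence, and 12642 tested genes had one of at least 50 bases. For each 7-mer found in at least 5% of the UTRs of genes not called, the share of fallers or of risers that contain it was divided by its share in the 10231 genes not called. The search ran on the mRNA strand alone, the words were chosen from these values, and the shares are therefore descriptions with no test. GAACATA ranked first of 10702 7-mers among fallers: it stood in 21.8% of 1184 fallers and 7.29% of the genes not called, a ratio of 2.99. AGAACAT, which overlaps it by 6 letters, ranked second at 28.8% and 12.7%, and the next 7-mer had a ratio of 2.05. Among risers AGCAACC (14.2% of 1227 risers and 6.10% of the genes not called) and GCAACCA (13.1% and 5.67%) ranked first and second. Each pair overlaps into one 8-mer, AGAACATA for fallers and AGCAACCA for risers, which share no 7-mer.
Windows of 30 bases are shown for the strongest fallers and risers that hold a match, 5′ to 3′ along the mRNA, with the match in capitals. The first pair fell and holds AGAACATA, at chr10:119168221-119168250 (minus strand) and chr6:126348493-126348522 (plus strand).
PRDX3: ctagtttctacAGAACATAatttgcctcta
CENPW: aagtcaaAGAACATAttcttgaaagttatg
The next rose. ENPP5 holds AGCAACCA at chr6:46160482-46160511 (minus strand). The others hold the 7-mer AGCAACC, at chr3:198038834-198038863 (plus strand), chr11:126263816-126263845 (minus strand) and chr9:136847586-136847615 (plus strand).
ENPP5: gcctgaatagaAGCAACCAggcaccatctc
LMLN: ctgtcctcatcAGCAACCcaaccaccttca
SRPRA: tagagtatgtgAGCAACCtgtcttcagtgt
AJM1: ttcccacccccAGCAACCcctctccctcct
The LMLN UTR of 344 bases contains AGCAACC 8 times, and the other windows are the single match of their UTR. RIDA also holds AGAACATA in its UTR, so 3 of the 12 largest falls carry that 8-mer. The other 9, MSX1, FADS2 and DSP among them, carry neither the 8-mer nor one of its 7-mers.

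Genes with the full AGAACATA fell more often than genes with a 7-mer of it, and for AGCAACCA the 2 classes were close. Of 450 genes with AGAACATA in the UTR (3.56% of UTRs), 29.3% fell and 4.67% rose, with a median log2 change of −0.17. Of 1783 genes with a 7-mer of it alone, 16.99% fell, and of 10409 genes with neither, 7.20% fell, with medians of −0.08 and 0.02. Of 291 genes with AGCAACCA (2.30% of UTRs), 21.3% rose and 3.09% fell, with a median of 0.14. A 7-mer of it alone was in 1008 genes, of which 19.8% rose, and 8.51% of the 11343 genes with neither rose. UTRs that hold the words are longer (median 3502 bases with AGAACATA and 846 bases without it or its 7-mers) and have less GC (median 36.9% and 43.9%). In 3 groups of genes by UTR length the order was kept for fallers: in UTRs of 50 to 596 bases 47.4% of 19 genes with the 8-mer fell, against 21.4% of 112 with a 7-mer alone and 7.08% of 4085 with neither. In UTRs of 1821 bases or more 26.0% of 343 with the 8-mer fell, against 14.8% of 1233 with a 7-mer alone and 7.43% of 2637 with neither. In the shorter of these UTRs 25% of 24 genes with AGCAACCA rose, against 28% of 50 with a 7-mer alone and 8.402% of 4142 with neither. In the longer ones 20.1% of 209 with the 8-mer rose, against 18.6% of 715 with a 7-mer alone and 8.45% of 3289 with neither.

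**Figure D2:**
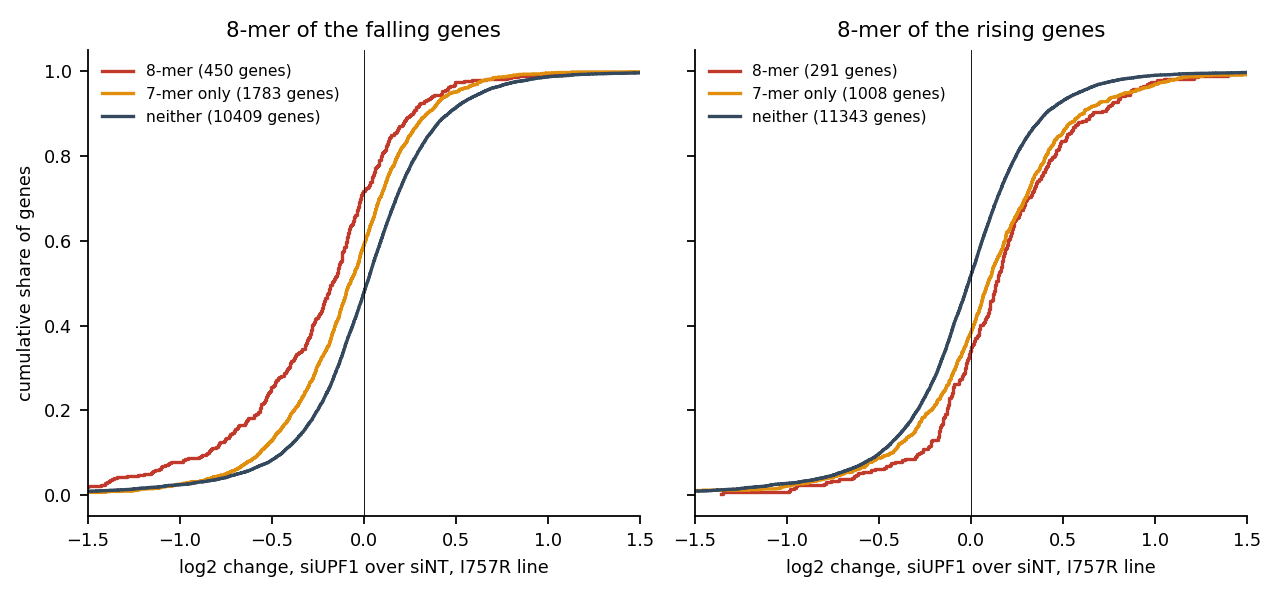
Cumulative share of genes (vertical axis) by log2 change, siUPF1 over siNT, in I757R (horizontal axis), for genes whose 3' UTR holds the 8-mer, a 7-mer of it alone, or neither. Left, AGAACATA, where the 450 genes with the 8-mer lie to the left of the 10409 with neither; right, AGCAACCA, where 291 genes lie to the right of 11343.

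The same 2 words led in the other lines. GAACATA and AGAACAT ranked first and second among fallers in IR-ER, WT and CLIP as well, and 30.4%, 28.2% and 40.9% of the 450 genes with AGAACATA fell in these lines in turn. Of the 10409 genes with neither the 8-mer nor a 7-mer of it, 7.13% fell in IR-ER, 5.91% in WT and 14.6% in CLIP. AGCAACC and GCAACCA held the first 2 ranks among risers in IR-ER and WT and ranks 4 and 3 in CLIP. The UPF1 mRNA itself was searched for both words. AGAACATA occurs once in each of the 2 full-length coding transcripts, in coding exon 6 of 24 (chr19:18852221-18852250, plus strand, hg38), and AGCAACCA does not occur.
UPF1: ctaccagtaccAGAACATAttcgggcccct
A match is a run of letters and no measured site, and whether either siRNA pairs with these letters was not tested, since no siRNA sequence was at hand.

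Established NMD targets as a group moved little in I757R cells. Of 61 listed targets, 6 rose and 4 fell, with a median log2 change of 0.03, beside 0.00 for all genes, of which 8.13% rose and 7.79% fell. With the replicate block 12 of the 61 rose and 11 fell, where 14.4% of all genes rose and 14.1% fell. In WT 3 of the 61 rose (8.43% of all genes did) and 3 fell (6.98%), with a median of −0.04. In IR-ER 9 rose (9.21%) and 3 fell (7.8%), with a median of 0.08. In CLIP cells, where 33.7% of all genes were called, 36 of the same 61 rose (18.1% of all genes did) and 6 fell (15.6%), with a median of 0.68. The difference of the effects, I757R minus CLIP, passed the test for 462 of all genes (2.77%), 60 of them higher in I757R (0.359%) and 402 lower (2.41%). Among the 61 targets 20 were lower in I757R and none was higher, with a median difference of −0.52. With the block these were 1208 genes (302 higher, 1.81%, and 906 lower, 5.43%) and 28 of the targets. ANTXR1, an anthrax toxin receptor, was among the risers of the list and had 59.7, 59.7 and 59.8 CPM with siUPF1 and 38.8, 37.6 and 43.0 CPM with siNT (0.59, SE 0.09, adjusted p = 9.60e-06). RPL12, whose alternative transcript is an NMD target, had 205, 189 and 205 CPM with siUPF1 and 292, 257 and 328 CPM with siNT (−0.55, SE 0.10, adjusted p = 0.000141). BAG1, a co-chaperone, rose by 0.59 (SE 0.17, adjusted p = 0.0160), and lost the call without siUPF1 replicate 2 (adjusted p = 0.109) or siNT replicate 3 (adjusted p = 0.108).

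Named after their values were seen, 4 further targets show the range. ATF4, the transcription factor of the integrated stress response, had 814, 664 and 899 CPM with siUPF1 and 727, 745 and 785 CPM with siNT in I757R, with overlapping groups (0.08, adjusted p = 0.715). In CLIP it averaged 1382.5 ± 54.1 CPM with siUPF1 and 770 ± 49.1 CPM with siNT (SD, n = 3 each), and the difference of effects was −0.77 (SE 0.15, adjusted p = 0.00158). TBL2 (−0.07 in I757R and 0.70 in CLIP) and the uridine phosphorylase UPP1 (−0.03 and 0.99) differed in the same direction, by −0.77 (adjusted p = 9.69e-05) and −1.02 (adjusted p = 0.00326). The UPP1 difference lost its call with only the compared groups fitted (adjusted p = 0.0612) and with no filter on low counts (adjusted p = 0.0684). The snoRNA host GAS5 stood at 0.10 in I757R and 0.72 in CLIP, and the difference of −0.62 did not pass the test (adjusted p = 0.143), but passed with the block (adjusted p = 0.00845).

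The mRNAs of NMD factors rise in many cells when NMD is impaired. In I757R cells 1 of 18 rose and 1 fell, with a median of −0.08, where 8.13% of all genes rose and 7.79% fell. In WT 1 rose and 4 fell, where 8.43% and 6.98% of all genes did. In IR-ER 3 rose and 2 fell, where 9.21% and 7.8% did. In CLIP 9 rose and 2 fell, with a median of 0.30, where 18.1% and 15.6% of all genes did. With the block 3 rose and 3 fell in I757R, where 14.4% and 14.1% of all genes did. SMG1, the kinase that phosphorylates UPF1, was the riser, with 621, 601 and 588 CPM with siUPF1 and 437, 422 and 368 CPM with siNT (0.56, SE 0.09, adjusted p = 9.11e-06). All 3 siUPF1 libraries were above the siNT libraries, as they were for 14.7% of all genes. The SMG1 rise was smaller than the 1.55 of CLIP, by −0.99 (adjusted p = 6.25e-07). RUVBL1, an ATPase that assists the SMG1 kinase, was the faller (−0.49, SE 0.07, adjusted p = 6.28e-06). SMG5 and SMG6, named after their values were seen, stood at −0.12 and −0.13 in I757R without passing the test, against 0.72 and 0.57 in CLIP. Their differences were −0.84 (adjusted p = 0.009) and −0.70 (adjusted p = 0.00312). UPF3B, chosen likewise, which links UPF1 to the exon junction complex, also differed (−0.58, adjusted p = 0.0262), and it lost the call without CLIP siNT replicate 1 or 3, I757R siNT replicate 2 or I757R siUPF1 replicate 2 or 3 (adjusted p from 0.0552 to 0.0826). None of the 13 exon junction complex genes was called in I757R.

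Of 28 snoRNA host genes, 2 rose and 2 fell in I757R, with a median of 0.08, beside 8.13% and 7.79% of all genes. With the block 9 rose and 2 fell, beside 14.4% and 14.1% of all genes. In WT 1 rose and 1 fell, where 8.43% and 6.98% of all genes did. In IR-ER 4 rose and 1 fell, where 9.21% and 7.8% did. In CLIP 15 rose and 3 fell, where 18.1% and 15.6% of all genes did. The effects of I757R and CLIP differed for 8 hosts, all lower in I757R, where 2.41% of all genes were lower. With the block 15 were lower and 1 higher, where 5.43% and 1.81% of all genes were. EPB41L4A-AS1 rose by 0.41 in I757R and 1.51 in CLIP, a difference of −1.10 (adjusted p = 0.000126). Its I757R call was lost without siNT replicate 1 or 2 or siUPF1 replicate 3 (adjusted p from 0.0626 to 0.315). SNHG20 rose as well (0.45, SE 0.11, adjusted p = 0.00274). With no filter on low counts both genes lost the call (adjusted p = 0.0516 each), as they did with only the 6 I757R libraries fitted (adjusted p = 0.138 for EPB41L4A-AS1 and 0.0642 for SNHG20). Among 43 splicing factors with poison exons, which are exons that carry a stop codon and send the mRNA to NMD, 2 rose and 4 fell in I757R, and 3 rose and 12 fell with the block. RBM3, a cold-inducible RNA-binding protein, had 82.2, 105 and 76.8 CPM with siUPF1 and 237, 305 and 170 CPM with siNT (−1.43, SE 0.25, adjusted p = 9.70e-05). LUC7L3, a splicing factor of the U1 particle, had 239, 218 and 270 CPM with siUPF1 and 452, 482 and 456 CPM with siNT (−0.93, SE 0.10, adjusted p = 1.58e-08). The groups did not overlap for either gene, and 13.9% of all genes lay below without overlap. The changes of RBM3 and LUC7L3 in WT (−1.48 and −0.97) and CLIP (−1.60 and −1.01) were of like size. SON, a scaffold of nuclear speckles, rose by 0.55 (SE 0.08, adjusted p = 5.82e-06).

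**Figure D3:**
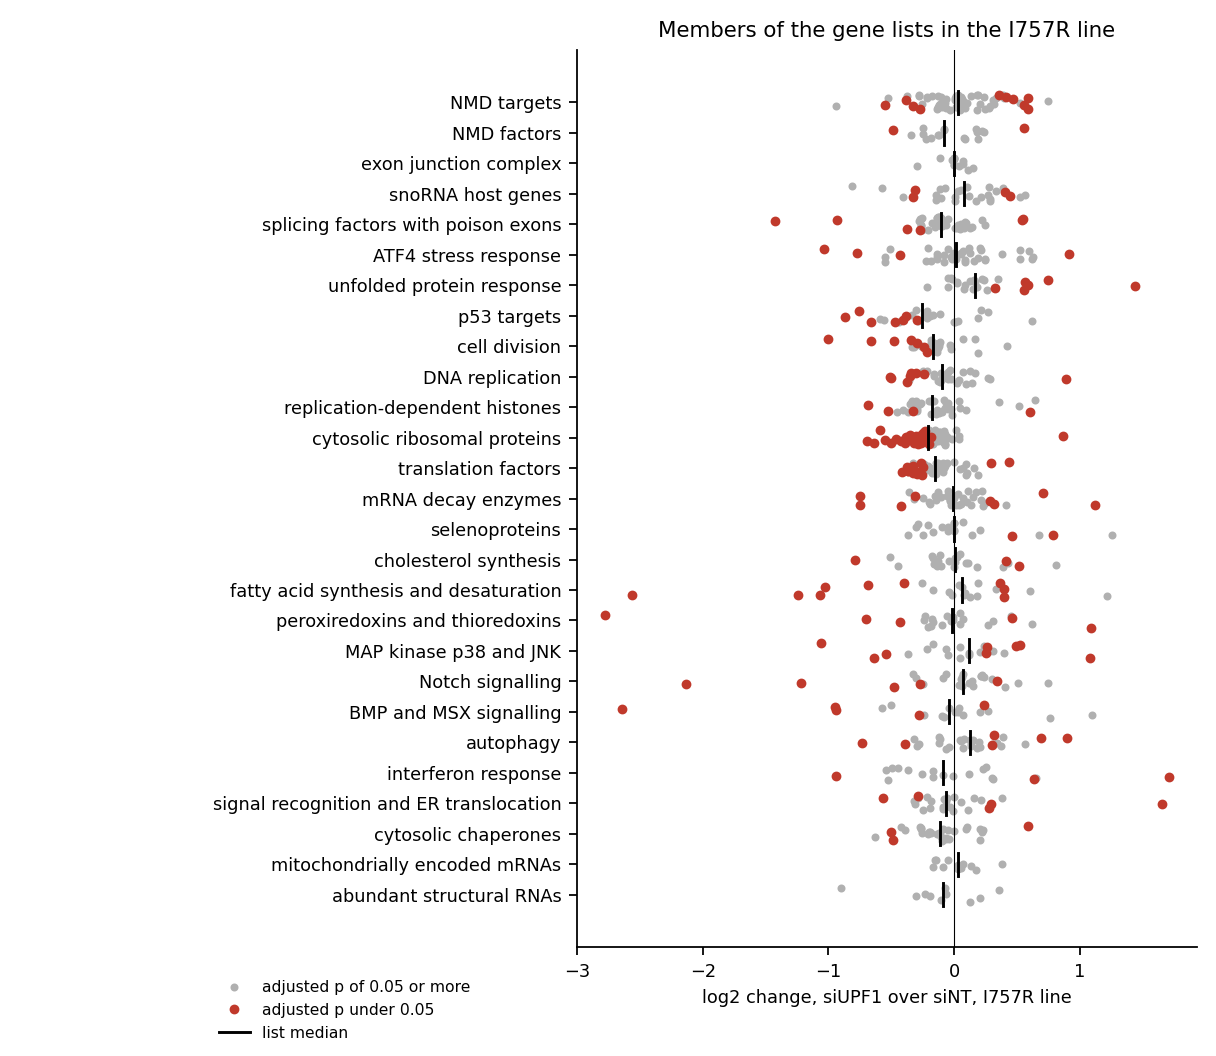
Log2 changes, siUPF1 over siNT, in the I757R line for the tested members of 27 gene lists, one point per gene, with called genes in red and the list median as a bar. The median of the 61 NMD targets is 0.03 and that of the 78 ribosomal proteins is −0.21, with 26 of them called lower.

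Lists beyond NMD were described in the same way. The 30 lists together held 769 tested genes, of which 51 rose and 105 fell (20.3% called, where 15.9% of all genes were). The lists and their members were chosen with earlier results of these data known, so these shares are descriptions only. The counts below stand against 8.13% of all genes that rose and 7.79% that fell, or 14.4% and 14.1% with the block. Genes of cytosolic ribosomal proteins leaned down: 26 of 78 fell and 1 rose, with a median of −0.21, and 47 fell with the block. RPS24, of the small subunit, had 407, 389 and 493 CPM with siUPF1 and 677, 670 and 734 CPM with siNT (−0.69, SE 0.10, adjusted p = 4.38e-06). RPS23 fell by a similar amount (−0.64, SE 0.08, adjusted p = 2.46e-07). RPLP0, the scaffold of the ribosomal stalk, was the exception, with 965, 704 and 950 CPM with siUPF1 and 448, 367 and 618 CPM with siNT (0.87, SE 0.17, adjusted p = 0.000261). The counts of these genes can share reads with their many pseudogenes. Of 41 translation factors 11 fell and 2 rose, with a median of −0.15, and 18 fell with the block. No ribosomal protein gene differed between I757R and CLIP. In CLIP 53 of 78 fell, where 15.6% of all genes did.

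Of the 28 cell division genes 7 fell and none rose, with a median of −0.16, and with the block 11 fell and 1 rose, where 7.79% of all genes fell and 14.1% did with the block. HMMR, which binds hyaluronan and spindle microtubules, had 51.7, 55.7 and 51.1 CPM with siUPF1 and 110, 114 and 93.6 CPM with siNT (−1.0, SE 0.14, adjusted p = 8.98e-07). KIF23, a kinesin of the midbody, fell by 0.66 (SE 0.13, adjusted p = 0.000199), and the mitotic kinase AURKA fell by 0.48 (SE 0.12, adjusted p = 0.00278). Among 32 DNA replication genes 7 fell and 1 rose. The riser was POLD1, the catalytic subunit of DNA polymerase delta, with 94.4, 89.7 and 89.9 CPM with siUPF1 and 44.2, 44.3 and 59.4 CPM with siNT (0.89, SE 0.14, adjusted p = 8.29e-06). TYMS, thymidylate synthase, fell by 0.51 (SE 0.11, adjusted p = 0.000533). Of 26 p53 targets 7 fell and none rose, with a median of −0.26, and with the block 12 fell and 1 rose. TP53INP1 (−0.87, SE 0.14, adjusted p = 3.01e-05) and RRM2B, a ribonucleotide reductase subunit (−0.76, SE 0.12, adjusted p = 7.69e-06), were the largest falls of that list. Of 41 replication-dependent histone genes 3 fell and 1 rose.

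The unfolded protein response list was the reverse: 6 of 24 rose and none fell, with a median of 0.16, where 8.13% of all genes rose. CREB3L2, an ER membrane transcription factor, had 142, 116 and 156 CPM with siUPF1 and 52.1, 42.0 and 58.4 CPM with siNT (1.44, SE 0.18, adjusted p = 1.64e-07). HYOU1, an ER chaperone, had 347, 292 and 313 CPM with siUPF1 and 202, 180 and 184 CPM with siNT (0.75, SE 0.12, adjusted p = 1.32e-05). SYVN1, a ubiquitin ligase of ER-associated degradation, rose by 0.57 (SE 0.13, adjusted p = 0.00144). All siUPF1 libraries of CREB3L2 and HYOU1 lay above all siNT libraries, as they did for 14.7% of all genes. In the ATF4 stress response list 1 of 41 rose and 3 fell, and 6 rose and 6 fell with the block. In CLIP 20 rose and 3 fell, where 18.1% of all genes rose and 15.6% fell. SLC7A5, an amino acid transporter, rose (0.91, SE 0.13, adjusted p = 3.60e-06), and PSAT1 of serine synthesis (−1.03, SE 0.18, adjusted p = 7.08e-05) and the tRNA synthetases NARS (−0.77, SE 0.07, adjusted p = 6.09e-10) and WARS (−0.43, SE 0.07, adjusted p = 1.87e-05) fell.

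Fatty acid genes held some of the steepest changes, with 6 of 23 lower and 3 higher and a median of 0.07. FADS1, the delta-5 desaturase, had 26.6, 23.9 and 23.3 CPM with siUPF1 and 55.0, 53.9 and 66.6 CPM with siNT (−1.25, SE 0.12, adjusted p = 6.05e-10). ELOVL2, an elongase of polyunsaturated fatty acids, had 14.9, 18.2 and 17.3 CPM with siUPF1 and 34.6, 35.4 and 34.7 CPM with siNT (−1.06, SE 0.12, adjusted p = 1.70e-08). ELOVL4, an elongase of very long chains, fell by 1.03 (SE 0.17, adjusted p = 2.55e-05). For these 3 genes and FADS2 the lowest siNT library was above the highest siUPF1 library, as it was for 13.9% of all genes. They were named for the size of their changes in the same libraries. Cholesterol synthesis had 2 of 24 higher and 1 lower, and 5 and 4 with the block. PRDX2, the cytosolic relative of PRDX3, had 181, 153 and 169 CPM with siUPF1 and 274, 261 and 280 CPM with siNT (−0.70, SE 0.09, adjusted p = 2.63e-07), and 3 of 24 peroxiredoxin and thioredoxin genes fell while 2 rose. JAG1, a Notch ligand, had 21.2, 22.5 and 23.7 CPM with siUPF1 and 51.5, 50.6 and 54.1 CPM with siNT (−1.22, SE 0.11, adjusted p = 5.72e-11), and the Notch target HEY1 fell by 0.48 (SE 0.11, adjusted p = 0.00198). Of 26 Notch genes 4 fell and 1 rose. BMPR2, a receptor for bone morphogenetic proteins (−0.95, SE 0.16, adjusted p = 3.83e-05), and their target ID2 (−0.94, SE 0.17, adjusted p = 0.000149) fell together with MSX1, among 4 falls and 1 rise of 19 genes.

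Among 42 mRNA decay enzymes 4 rose and 4 fell, near the 8.13% and 7.79% of all genes, and 7 and 9 did with the block. EXOSC6, a subunit of the RNA exosome, had 259, 254 and 271 CPM with siUPF1 and 116, 111 and 133 CPM with siNT (1.12, SE 0.07, adjusted p = 6.71e-16), while CNOT6, a deadenylase, fell by 0.75 (SE 0.12, adjusted p = 2.70e-05). Of 30 autophagy genes 4 rose and 2 fell, with the lipid scramblase ATG9A at 0.90 (SE 0.15, adjusted p = 2.15e-05) and ATG13 at −0.74 (SE 0.13, adjusted p = 8.21e-05). MAP kinase genes of the p38 and JNK pathways had 5 of 22 higher and 3 lower, among them MAP3K7 (−0.64, SE 0.13, adjusted p = 0.000378). Of 25 signal recognition and ER translocation genes 3 rose, SRPRA among them, and 2 fell. Selenoproteins had 2 of 20 higher, led by SELENOW (0.79, SE 0.13, adjusted p = 1.35e-05). Chaperones had 1 of 31 higher and 2 lower, CCT7 (−0.50) and CCT4 (−0.49), and 9 lower with the block. Interferon response genes had 2 of 19 higher, with STAT2 at 0.64 (SE 0.14, adjusted p = 0.00127), and 1 lower. None of the 13 mitochondrially encoded mRNAs or the 10 abundant structural RNAs passed the test.

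The knockdown responses of I757R and WT were then compared. In WT 2572 genes were called (15.4%), 1407 higher (8.43%) and 1165 lower (6.98%), and 4356 were called with the block. Of the I757R risers 953 also rose in WT (70.2% of the I757R risers and 67.7% of the WT risers), and 830 fell in both (63.8% of the I757R fallers and 71.2% of the WT fallers). No gene was called in opposite directions. For the difference of effects, I757R minus WT, 0 genes passed in edgeR and 0 in DESeq2, and 312 had an edgeR p under 0.05 before adjustment. Without the filter on low counts edgeR called 34 genes, 15 higher and 19 lower. A p that misses the threshold does not show that the lines act alike. The 95% interval of the difference lay within 2-fold in either direction for 92.5% of the 11900 genes with a mean of at least 5 CPM, and within 1.5-fold for 62.1%. For PRDX3 the interval ran from −0.74 to 0.18, for DSP from −0.34 to 0.14, for CELF2 from −0.46 to 0.12 and for PAQR6 from −1.23 to 0.70. Not all intervals held 0. For SMG1 (0.56 in I757R and 0.14 in WT) it ran from 0.18 to 0.68. For EPB41L4A-AS1 (0.41 and −0.19) it ran from 0.21 to 0.98. In IR-ER SMG1 changed by 0.56 and EPB41L4A-AS1 by 0.37. The intervals of I757R minus IR-ER held 0, from −0.25 to 0.25 and from −0.33 to 0.42. The intervals are not adjusted for the number of genes.

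In IR-ER 2839 genes were called (17%), of which 1537 rose (9.21%), 1034 of them shared with I757R (76.1% of the I757R risers and 67.3% of those of IR-ER), and 1302 fell (7.8%), 958 of them shared (73.7% and 73.6%). For this difference too, 0 genes passed in edgeR and 0 in DESeq2, and 181 had an edgeR p under 0.05 before adjustment, and without the filter 32 were called. Its interval lay within 2-fold for 93.4% and within 1.5-fold for 65.3% of 11964 genes. Across all genes tested the changes of I757R correlated with those of IR-ER, WT and CLIP at Pearson r of 0.634, 0.541 and 0.572, over genes that are not independent and between lines that share no library. With siNT alone I757R and WT differed at 1 gene (0.00599%), and 468 had a p under 0.05 before adjustment. The gene was the antisense RNA LINC00632, at a mean of 2.24 CPM in I757R and 7.13 CPM in WT, named after its values were seen, and the count ran from 0 to 2 when 1 library was left out. With only these 6 siNT libraries fitted and the replicate number as a block, an alternative chosen after seeing the data, 61 genes were called, and with no filter on low counts 46 were.

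**Figure D4:**
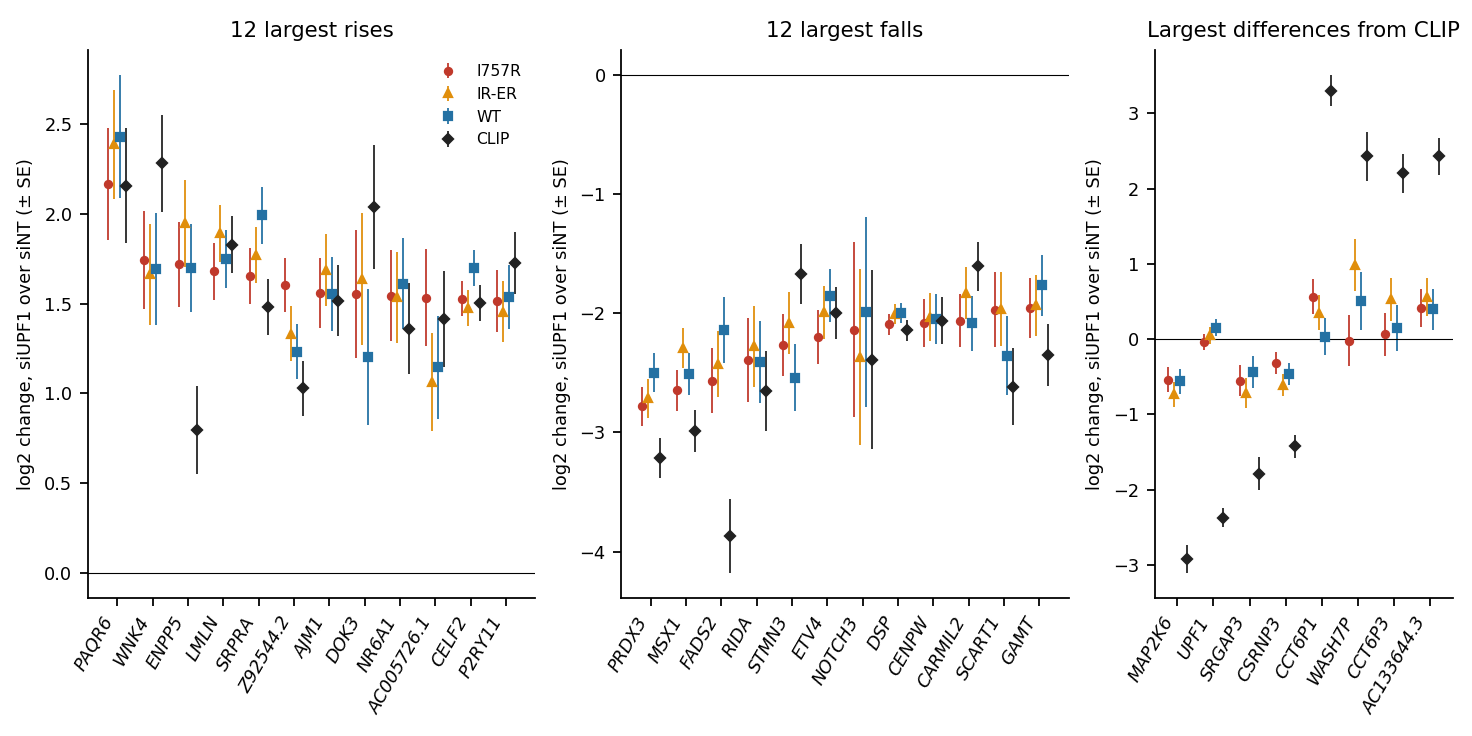
Log2 change, siUPF1 over siNT, with its SE as bars, in I757R, IR-ER, WT and CLIP (left to right for each gene), for the 12 largest rises and 12 largest falls of I757R and the 4 largest called differences from CLIP in each direction among genes with a mean of at least 5 CPM. The PRDX3 points lie between −3.21 and −2.50, while MAP2K6 is at −0.54 in I757R and −2.92 in CLIP.

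Relative to CLIP, fewer genes were called in I757R and 462 differed in effect. Of the I757R risers 1088 also rose in CLIP (80.1% of the I757R risers and 36.1% of the 3017 CLIP risers), and 1009 fell in both (77.6% and 38.7%), while 11 genes were called in opposite directions, 2 of the I757R risers and 9 of its fallers. None of the 12 largest rises or 12 largest falls of I757R differed from CLIP in the test without the block, and results with the block are not given for these genes. FADS2 fell further in CLIP (−3.87), and the difference of 1.3 had an adjusted p of 0.101. Before adjustment its 95% interval ran from 0.44 to 2.17. The intervals of ENPP5 (0.23 to 1.62) and Z92544.2 (0.15 to 1.01) also lay above 0, with adjusted p of 0.174 and 0.172. Among genes with a mean of at least 5 CPM over the libraries compared, the largest called difference upward was that of MAP2K6, a kinase that activates p38. The less abundant COL3A1 differed by 2.56 (adjusted p = 0.00459). MAP2K6 had 23.1, 24.3 and 20.9 CPM with siUPF1 and 41.1, 33.0 and 24.7 CPM with siNT in I757R, while in CLIP it averaged 5.80 ± 1.08 CPM with siUPF1 and 43.7 ± 4.84 CPM with siNT (SD, n = 3 each). The difference of effects was 2.38 (SE 0.25, adjusted p = 3.26e-08). The I757R fall of MAP2K6 itself (−0.54, adjusted p = 0.0210) lost its call without siNT replicate 1 or siUPF1 replicate 1 or 3 (adjusted p from 0.0626 to 0.233), and with only the 6 I757R libraries fitted (adjusted p = 0.0844). SRGAP3, a regulator of Rac signalling, and CSRNP3, a nuclear protein, stood at −0.55 and −0.32 in I757R and −1.79 and −1.42 in CLIP, differences of 1.24 (adjusted p = 0.0112) and 1.10 (adjusted p = 0.000797). With the block both passed the test in I757R (adjusted p = 0.00202 and 0.0469).

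The largest called differences downward at that level were 3 pseudogenes and a noncoding locus. CCT6P1, a pseudogene of a chaperonin subunit (chromosome 7, 65751142 to 65763354), averaged 4.33 ± 0.495 CPM with siUPF1 and 2.93 ± 0.623 CPM with siNT in I757R, and 26.3 ± 8.79 CPM with siUPF1 and 2.63 ± 0.536 CPM with siNT in CLIP. The difference of effects was −2.73 (SE 0.31, adjusted p = 1.24e-07), and the I757R value of 0.56 passed the test with the block (adjusted p = 0.0358) but not without it (adjusted p = 0.087). CCT6P3 (−2.14, adjusted p = 0.000439), WASH7P (−2.45, adjusted p = 0.000887) and AC133644.3 (−2.02, adjusted p = 0.000292) showed I757R levels of 1.95 to 7.23 CPM in every library, against CLIP means of 20.1, 18.2 and 16.4 CPM with siUPF1. Reads of these loci can be shared with near-identical copies, and their counts are estimates.

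To express the extent, genes called in CLIP with at least 1.5-fold change were followed in I757R. The 1571 CLIP risers (9.41% of all genes) were on average 0.454 ± 0.056 higher with siUPF1 in I757R on the log2 scale, 0.5, 0.471 and 0.392 in replicates 1 to 3, against 0.962 ± 0.038 in CLIP (SD, n = 3 each). That is 47.2% of the CLIP response, beside 49.5% in IR-ER (0.476 ± 0.037) and 42.8% in WT (0.412 ± 0.037). The 1447 CLIP fallers (8.67%) changed by −0.589 ± 0.046 in I757R, or 58.7% of the −1.004 ± 0.057 in CLIP, beside 60.7% in IR-ER and 58.2% in WT. The I757R, IR-ER and WT replicates interleaved, and every CLIP replicate was outside their range. These sets were chosen on CLIP libraries, so the CLIP values describe the choice and no test was made. Of the CLIP fallers, the 121 with AGAACATA in the UTR changed by −0.742 ± 0.094 in I757R, 67.0% of CLIP, the 261 with a 7-mer alone by −0.626 ± 0.082, 65.4% of CLIP, and the 748 with neither by −0.634 ± 0.015, 63.1% of CLIP. The 7-mer class and the class with neither differed by less than the spread between replicates.

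**Figure D5:**
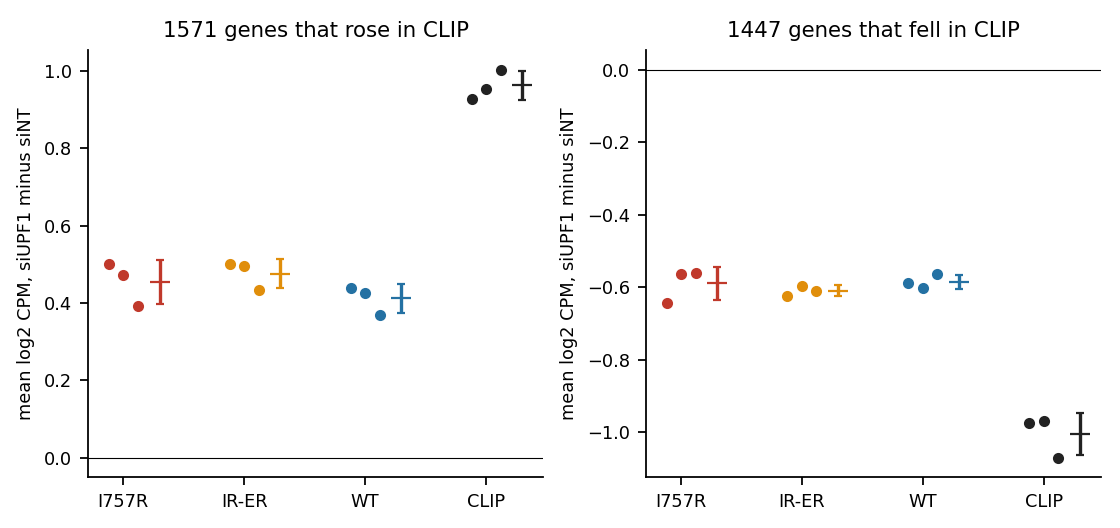
Mean log2 CPM with siUPF1 minus siNT over the genes that rose (left, 1571 genes) or fell (right, 1447 genes) by at least 1.5-fold in CLIP, one point per replicate number, with the mean and SD beside them. The 3 I757R points lie at 0.392 to 0.5 on the left and −0.643 to −0.562 on the right, and every CLIP point is farther from 0.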

How the data were processed

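RNA-seq libraries of 8 lines with 2 siRNAs and 3 replicates each (48 libraries) were used. The deposited table holds RSEM expected counts for 58870 genes, and 9.16% of its values are not whole. The authors used cutadapt, STAR, RSEM and DESeq2 with hg38, per the submitters' processing notes, which give no versions or order. The annotation release and strand setting are not given in the sources used here, so reads of antisense, overlapping or pseudogene partners cannot be told apart with certainty.

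Expected counts were rounded to whole numbers. Genes were kept with edgeR's filterByExpr at a minimum count of 10 over the 16 groups. All 48 libraries entered one robust quasi-likelihood fit (edgeR 4.0.16 in R 4.3.3, TMM scaling), with Benjamini-Hochberg adjustment over all genes tested and two-sided tests. SE is the size of the log2 change divided by the square root of F. Alternatives were RLE scaling, other count filters, DESeq2 1.42.0, fits of the compared groups alone, the replicate number as a block, and leaving out each library. Same-numbered siUPF1 and siNT libraries of I757R deviated together from their group means (r = 0.115, 0.369 and 0.368 over genes), so the numbers were taken to pair them. The main fit leaves this pairing out. In the fit of all 48 libraries the block effects were shared by all lines. In the fits of the compared groups alone they were set within each line, except for I757R against WT with siNT. The p-values measure the spread between replicates of single lines.

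The genes named are UPF1, the 12 largest called rises and 12 largest falls in I757R with a mean of at least 5 CPM, up to 4 called members of each list with the largest changes, and the 4 largest differences from other lines in each direction. Others are said to be named after their values were seen. Some genes that these rules name are not reported here. The members and lists were chosen with earlier results of these data known. Gene positions, types and UTRs came from GENCODE 29, matched by Ensembl ID without version. Scripts were tested on simulated data.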

Additional observations from a re-analysis of the deposited data

Results flagged for a closer look

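Several genes responded differently to siUPF1 in I757R than in CLIP, by edgeR's test of the difference of the log2 effects (I757R minus CLIP, Benjamini-Hochberg adjusted p over all genes tested). The difference was positive for UPF1 (2.33, adjusted p = 1.58e-12), MAP2K6 (2.38, adjusted p = 3.26e-08), the collagen gene COL3A1 (2.56, adjusted p = 0.00459), SRGAP3 (1.24, adjusted p = 0.0112), CSRNP3 (1.10, adjusted p = 0.000797) and ELOVL2 (0.66, adjusted p = 0.0187). It was negative for the loci CCT6P1 (−2.73, adjusted p = 1.24e-07), WASH7P (−2.45, adjusted p = 0.000887), CCT6P3 (−2.14, adjusted p = 0.000439) and AC133644.3 (−2.02, adjusted p = 0.000292). Among genes of the NMD, snoRNA host and translation factor lists it was negative for BAG1 (−1.19, adjusted p = 0.00203), EPB41L4A-AS1 (−1.10, adjusted p = 0.000126), UPP1 (−1.02, adjusted p = 0.00326), SMG1 (−0.99, adjusted p = 6.25e-07), EIF5 (−0.88, adjusted p = 0.000484), SMG5 (−0.84, adjusted p = 0.009), ATF4 (−0.77, adjusted p = 0.00158), TBL2 (−0.77, adjusted p = 9.69e-05), SMG6 (−0.70, adjusted p = 0.00312) and UPF3B (−0.58, adjusted p = 0.0262). The ELOVL2 call was lost without CLIP siUPF1 replicate 1, CLIP siNT replicate 2 or I757R siUPF1 replicate 2 or 3 (adjusted p 0.0601 to 0.0954). The ELOVL2 call was also lost with only the compared groups fitted (adjusted p = 0.0805) and with no filter on low counts (adjusted p = 0.177). The UPP1 call was lost in the same fits (adjusted p = 0.0612 and 0.0684). The UPF3B call was lost without CLIP siNT replicate 1 or 3 (adjusted p = 0.0552 and 0.0826). UPF3B also lost it without I757R siNT replicate 2 or I757R siUPF1 replicate 2 or 3 (adjusted p from 0.0564 to 0.0673). COL3A1 averaged 5.62 CPM with siUPF1 and 2.52 CPM with siNT in I757R, and whether it comes from other cells was not tested. No named gene passed this test for I757R minus WT or I757R minus IR-ER. Groups of 3 libraries were not searched for single outlying samples.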

How the results depend on the processing

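For the named genes, 2012 values were recomputed under the alternatives. Of these, 1834 stayed on their side of the threshold, 166 lost the call and 12 gained it. Among values called in either fit 0 changed direction, and a change of sign with no call in either was not counted. Of the lost calls 125 came from leaving out 1 library, 27 from fitting the compared groups alone and 12 from no filter on low counts. RLE scaling gave 1, and the compared groups fitted with the replicate block gave 1 (AC005726.1, adjusted p = 0.166). With the replicate block the called genes were 4756 in I757R, 4356 in WT, 4715 in IR-ER, 1208 for I757R minus CLIP, 2 for I757R against WT with siNT and 288 over the gene lists in I757R (156 without it), and no named gene lost its call. With only the compared groups fitted they were 1344 in I757R, 1204 in WT, 1 for I757R minus WT, 290 for I757R minus CLIP, 0 for I757R against WT with siNT and 79 over the lists, and with the replicate block in these smaller fits 4932 in I757R, 5082 in WT, 5224 in IR-ER, 2 for I757R minus WT, 1347 for I757R minus CLIP and 339 over the lists. The planned block within each line leaves no contrast for I757R against WT with siNT and was not run there; a block shared by both lines, chosen after seeing the data, gave 61 genes, 57 higher and 4 lower in I757R. Without a filter on low counts 34 genes were called for I757R minus WT, 32 for I757R minus IR-ER and 46 for I757R against WT with siNT, and DESeq2 called 2 for the last. Leaving out 1 library at a time gave 1829 to 2201 called genes in I757R, 1722 to 2378 in WT, 4539 to 5172 in CLIP, 2005 to 2288 in IR-ER, 348 to 491 for I757R minus CLIP, 0 for I757R minus WT and minus IR-ER, 0 to 2 for I757R against WT with siNT, 109 to 125 over the lists, and a UPF1 change of −0.11 to 0.04. Over genes changed at least 2-fold in CLIP the I757R response was 0.590 for rises and −0.781 for falls, and without 1 replicate number at 1.5-fold it was 0.431 to 0.485 and −0.603 to −0.562. RLE scaling moved the median change of all genes to 0.000 from 0.003, and 49.9% of calls were then rises, beside 51.1% with TMM. With UTRs of the longest annotated form, an alternative chosen after seeing the data, 26.5% of genes with AGAACATA fell and 19.4% with AGCAACCA rose. The causes of these shifts were not tested. With 3 libraries a group and 6516261 counts in the shallowest I757R library, the median SE was 0.171 in I757R and 0.244 for I757R minus WT. Intervals were wider when low genes were included. For I757R minus WT they lay within 2-fold for 68.6% of all genes and for 92.5% of those with a mean of at least 5 CPM.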
